A study of Homo sapiens with 4 samples.

Results

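The genes described here were HYOU1 and 9 other genes of chaperones and folding enzymes of the endoplasmic reticulum, namely HSPA5, HSP90B1, CALR, CANX, PDIA3, PDIA4, PDIA6, DNAJB11 and SDF2L1. Their peaks were those listed under their NCBI Gene IDs, with each position counted once. There were 8 such positions of 9107 for HNRNPC and 47 of 63507 for PABPC4, in 10 of the 13328 gene IDs that had a peak in either list. HYOU1 was chosen by its measured value, a very tall HNRNPC peak in the 3′ untranslated region (3′ UTR), and that height is therefore given as a description. The IDs of all 10 genes were found, and 0 of their positions were also listed under another ID.

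The cells were of the line MDA-MB-231, which was established from a human breast cancer, and were cross-linked with 400 mJ per square centimetre of ultraviolet light at 254 nm. No other treatment was given to either group. One group was 2 samples of CLIP, in which RNA cross-linked to a protein is immunoprecipitated and sequenced as tags, with an antibody to HNRNPC, and the other was 2 samples with an antibody to PABPC4 by PAPERCLIP, in which reverse transcription is primed on poly(A) tails. The samples of a protein were pooled before peaks were called, so that every value below is 1 value per protein with no spread between replicates, and no test between conditions could be made. Both groups came from the same line, with no control immunoprecipitation and no measure of RNA abundance used here.

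The height of a peak was the number of unique tags at its summit, pooled over both samples. More RNA of a gene and more binding per RNA molecule cannot be told apart by a height. Heights are compared only within a list, and the 2 lists were not scaled to each other. Read totals per sample were not used here, so the depth behind the heights is unknown. Shares are given with 95% Wilson intervals, which cover counting error only, and peaks of the same gene are not independent.

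The endoplasmic reticulum is where secreted and membrane proteins fold, acquire disulfide bonds and are glycosylated. Hsp70 and Hsp90 chaperones, lectins and disulfide isomerases act there in succession on new chains, and when unfolded protein accumulates the unfolded protein response raises the transcription of many of their genes. HNRNPC is a mostly nuclear protein that binds U-rich RNA, and PABPC4 is a protein that binds poly(A) tails and moves between nucleus and cytoplasm.

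HNRNPC had a peak in 6 of the 10 genes, HYOU1, HSP90B1, CALR, CANX, PDIA4 and PDIA6, or 60% (31.3 to 83.2%). Among the 9769 protein-coding genes with a PABPC4 3′ UTR peak, 34.4% had an HNRNPC peak, which lies within that interval. HSPA5, PDIA3, DNAJB11 and SDF2L1 had none listed. A 3′ UTR peak of HNRNPC was present in HYOU1 and CANX only among the 10, or 20% (5.67 to 51.0%), against 3.81% of the same 9769 genes. HYOU1 was chosen for its peak, so nothing is read from the difference. The chaperone genes held 8 HNRNPC peaks over 229791 nt of gene, or 0.348 per 10 kb. The 9769 genes held 7931 peaks over 659477407 nt, or 0.120 per 10 kb. Gene spans came from GENCODE for the chaperones and from RefSeq for the larger set. Long genes weigh most in such pooled values and the HYOU1 peak is among the 8, so nothing is read from this difference either. The median gene length was 21111 nt for the chaperones and 31920 nt for the larger set.

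**Figure D1:**
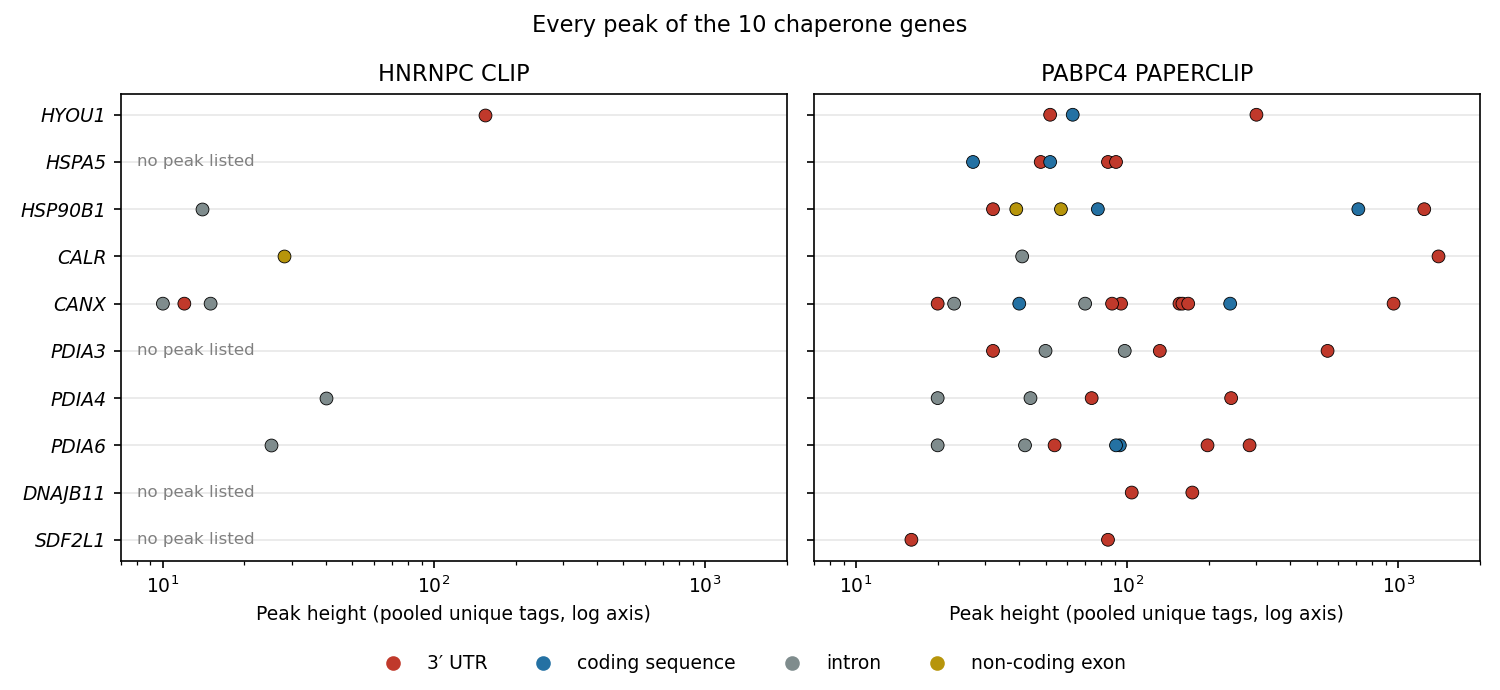
Height of every HNRNPC peak (left) and PABPC4 peak (right) of the 10 genes, in pooled unique tags on a log axis, 1 point per peak, coloured by the annotated feature at the peak's centre. The HYOU1 3′ UTR peak of 154 tags stands to the right of the other 7 HNRNPC peaks, which lie between 10 and 40 tags, and each gene has at least 1 PABPC4 3′ UTR peak.

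HYOU1 encodes a large Hsp70-related chaperone that serves as a nucleotide exchange factor for HSPA5. The gene lies on the minus strand of chromosome 11 at 119044188 to 119057227 (hg38), and its MANE Select transcript, the reference transcript chosen by RefSeq and Ensembl, has 26 exons and a 3′ UTR of 1405 nt. Its only HNRNPC peak, at chr11:119044387-119044529, was 154 tags high and 143 nt wide. The centre of the peak lay in the last exon, 1134 nt after the stop codon, and its 3′ end was 199 nt before the end of the transcript. This was rank 2 of the 452 HNRNPC 3′ UTR peaks by height, after 196 tags in TNFRSF10B and before 134 tags in EHMT1, and it ranked 21 among all 9107. The median HNRNPC 3′ UTR peak was 11 tags high. Of the 4098 gene IDs with an HNRNPC peak, 2282 had 1 peak only, and HYOU1 ranked 3 by height among those.

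The position of the HYOU1 peak in the list depended on the scale. The height that the authors expected by chance in HYOU1 was 0.98 tags, so the peak was 157 times that height. By this ratio it ranked 51 of the 449 HNRNPC 3′ UTR peaks with an expected height above 0. The ratio was larger for the PDIA6 peak, at 417, and the other 6 peaks of the chaperone genes had ratios from 28.6 to 125. The median ratio was 76.7 over the 8 peaks and 58.3 over the whole list.

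The other 7 HNRNPC peaks were 10 to 40 tags high, and between 37.0% and 94.3% of all HNRNPC peaks were lower than them. PDIA4, a disulfide isomerase, had a peak of 40 tags in intron 4 (chr7:149012881-149012991), 520 nt from the nearest exon, the highest of the 7. CALR, the soluble lectin calreticulin, had a peak of 28 tags at chr19:12943312-12943405, in intron 7 of the MANE Select transcript and in an exon of a non-coding transcript. PDIA6, another disulfide isomerase, had a peak of 25 tags in intron 1 (chr2:10811257-10811364). The first intron also held the peak of HSP90B1, the endoplasmic reticulum form of Hsp90, which was 14 tags high at chr12:103930918-103931023 and 353 nt from an exon. CANX, the membrane-bound lectin calnexin, had 3 peaks, of 10 tags in intron 1, 15 tags in intron 8 and 12 tags in the 3′ UTR. Against the list median of 11 tags, the CANX 3′ UTR peak at chr5:179729447-179729608 was thus ordinary in height, and it ranked 177 of 452. The 8 peaks were 94 to 162 nt wide, with a median of 110 nt against 101 nt in the list.

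The hexamer GUGUCA was searched on the transcript strand, in the last 20 nt of each HNRNPC peak and the 10 nt after it. It stood there in 5 of the 8 peaks, or 62.5% (30.6 to 86.3%), against 37.0% of the 9107 peaks, which lies within that interval. In each of the 5 it was followed by G, and GUGUCAG was present in 31.5% of the list. The windows are shown because the 4 tallest HNRNPC peaks of the chaperone genes share this element. Each is 30 nt of the hg38 reference, with GUGUCA in capitals.
HYOU1, chr11:119044377-119044406, minus strand: cuggcuGUGUCAgucauuuugucuuuuccu
HSP90B1, chr12:103931004-103931033, plus strand: ccuggggccagcggaauggcaGUGUCAgcg
CALR, chr19:12943386-12943415, plus strand: ucuuuuuaacugcaGUGUCAgcgguguucc
PDIA4, chr7:149012871-149012900, minus strand: ccuggguggucuGUGUCAgugaggguuugu
PDIA6, chr2:10811247-10811276, minus strand: auuacaaGUGUCAgucaccuggcccagcua

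Those 5 peaks were 14 to 154 tags high with a median of 28 tags, and the 3 CANX peaks, which lacked the hexamer, were 10 to 15 tags high. The ranges overlapped between the HSP90B1 peak of 14 tags and the CANX peak of 15 tags. All peaks without the hexamer were of a single gene, and HYOU1 was chosen by its height, so nothing is read from this contrast. Over the whole list the median was 13 tags with the hexamer and 10 tags without it. The element began inside the peak in HYOU1, CALR, PDIA4 and PDIA6, at 6 to 14 nt before its end, and began 1 nt past the end in HSP90B1. Whether a sequence shared by so many peaks marks binding by HNRNPC was not tested, nor was its part in their heights.

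U runs were counted around the same peaks, since HNRNPC binds poly(U). UUUUU lay inside the CALR peak alone, 1 of 8 (12.5%) against 13.3% of the list. In the 50 nt upstream it was present for HSP90B1, the intron 1 peak of CANX and PDIA6, or 37.5% (13.7 to 69.4%), against 30.5%. In the 50 nt downstream it was present for HYOU1 and both intron peaks of CANX, again 37.5%, against 28.1%. All 3 shares of the list lay within the intervals of the chaperone genes. The run after the HYOU1 peak contains UUUUU many times over, and the 30 nt right after the peak are shown with it in capitals.
HYOU1, chr11:119044357-119044386, minus strand: gucuuuuccUUUUUUUUUUUUUUUUgccac

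The run was 16 U long, and 9 nt separated it from the end of the peak. A run of at least that length lay in the 50 nt downstream of 0.856% of HNRNPC peaks, and of 1 of the 8 peaks here. The length searched was taken from the HYOU1 sequence, so the comparison describes how rare such a run was and is no test.

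Another element, GGAUUACA, was present inside 3 of the 8 peaks, or 37.5% (13.7 to 69.4%), against 9.29% of the list. The list share lies below that interval. The motif was chosen with earlier results of these data known, so nothing is read from the difference. Whether the octamer belongs to a repeat was not examined. The 3 peaks with the octamer were the CALR peak, the intron 1 peak of CANX and the PDIA6 peak. The windows in CALR and PDIA6, the taller peaks, are shown with the octamer in capitals.
CALR, chr19:12943338-12943367, plus strand: ccucugggcgaGGAUUACAggcgugaucca
PDIA6, chr2:10811260-10811289, minus strand: ccaaaauccugGGAUUACAagugucaguca
In PDIA6 the octamer and GUGUCA were 1 nt apart, and both windows shown for this gene overlap. The HYOU1 peak held none of this octamer.

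PABPC4 had a 3′ UTR peak in all 10 genes, or 100% (72.2 to 100%). Of the 20056 protein-coding genes, whether or not expressed in these cells, 48.7% had one, so nothing is read from the difference. The tallest such peak of each gene was 85 to 1409 tags high with a median of 291.5 tags, and the median over the 9769 genes was 73 tags. In falling order these heights were 1409 tags in CALR, 1248 in HSP90B1, 962 in CANX, 549 in PDIA3, 300 in HYOU1, 283 in PDIA6, 242 in PDIA4, 174 in DNAJB11, 91 in HSPA5 and 85 in SDF2L1. Neighbours in this order cannot be called different, as no spread between samples could be had. CALR ranked 96 and HSP90B1 118 of the 9769 genes, and HYOU1 ranked 968. SDF2L1 and HSPA5 were close to the middle, with 55.7% and 58.5% of genes below them.

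Of the 47 PABPC4 peaks, 27 lay in 3′ UTRs, or 57.4% (43.3 to 70.5%), against 29.7% of the whole list. Coding sequence held 9 and introns held 9, each 19.1% (10.4 to 32.5%), against 5.08% and 60.2% of the list. The other 2 were in non-coding exons. The 3′ UTR peaks had a median of 104 tags and the 20 others a median of 51 tags, and in the whole list the medians were 45 and 36 tags. By summed height, 3′ UTRs held from 59.1% of the tags of HSP90B1 to 100% of those of DNAJB11 and SDF2L1, and 84.8% of those of HYOU1.

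The ends of these peaks were compared with annotated 3′ ends and with poly(A) signals, the hexamers AAUAAA and AUUAAA that direct cleavage of the transcript. An annotated end was the nearest 3′ end of any protein-coding transcript on the same strand. Of the 27 peaks, 16 ended within 25 nt of one, or 59.3% (40.7 to 75.5%), against 42.9% of the 18891 PABPC4 3′ UTR peaks. A signal lay in the last 40 nt of 14, or 51.9% (34.0 to 69.3%), against 48.6%. It began 18 to 34 nt before the peak's end, with a median of 21 nt, as in the whole list. The 16 peaks near an annotated end had a median of 167 tags, and the 11 others had a median of 95 tags. Signals were present in 10 of the 16 and 4 of the 11, and the shares in the list were 77.2% and 27.1%.

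Among the tallest 3′ UTR peak of each gene, 7 of 10 had a signal, or 70% (39.7 to 89.2%), against 61.1% of the 9769 genes. The 3 without were DNAJB11, which had the variant AAUACA, PDIA4 and SDF2L1. These windows are shown so that the signal, or its absence, can be read beside each peak. Each begins with the signal in capitals and runs past the peak's end where the signal is close to it, and for PDIA4 and SDF2L1 the last 30 nt of the peak are given in lower case.
HYOU1, chr11:119044179-119044208, minus strand: AAUAAAauauucuuuucuacaguuuuugug
HSPA5, chr9:125236236-125236265, minus strand: AAUAAAuguuuguuauuuacacuggucuaa
HSP90B1, chr12:103947907-103947936, plus strand: AAUAAAaaagaucccaaauacucagugucu
CALR, chr19:12944473-12944502, plus strand: AUUAAAuuuugugucucccuccugugucuc
CANX, chr5:179730903-179730932, plus strand: AUUAAAgcccuguguuaagugucugcuuuu
PDIA3, chr15:43771520-43771549, plus strand: AAUAAAugagaccccuuuaaacugucuuau
PDIA4, chr7:149003442-149003471, minus strand: uuuaagguuuaaaauuccuuuuccaaauca
PDIA6, chr2:10783382-10783411, minus strand: AAUAAAuacaacugucacuaacuuuuguga
DNAJB11, chr3:186585772-186585801, plus strand: AAUACAuuuuguuguuauuuuuuucaugac
SDF2L1, chr22:21644212-21644241, plus strand: ggggcgucugcagggccacucuuggcagag

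**Figure D2:**
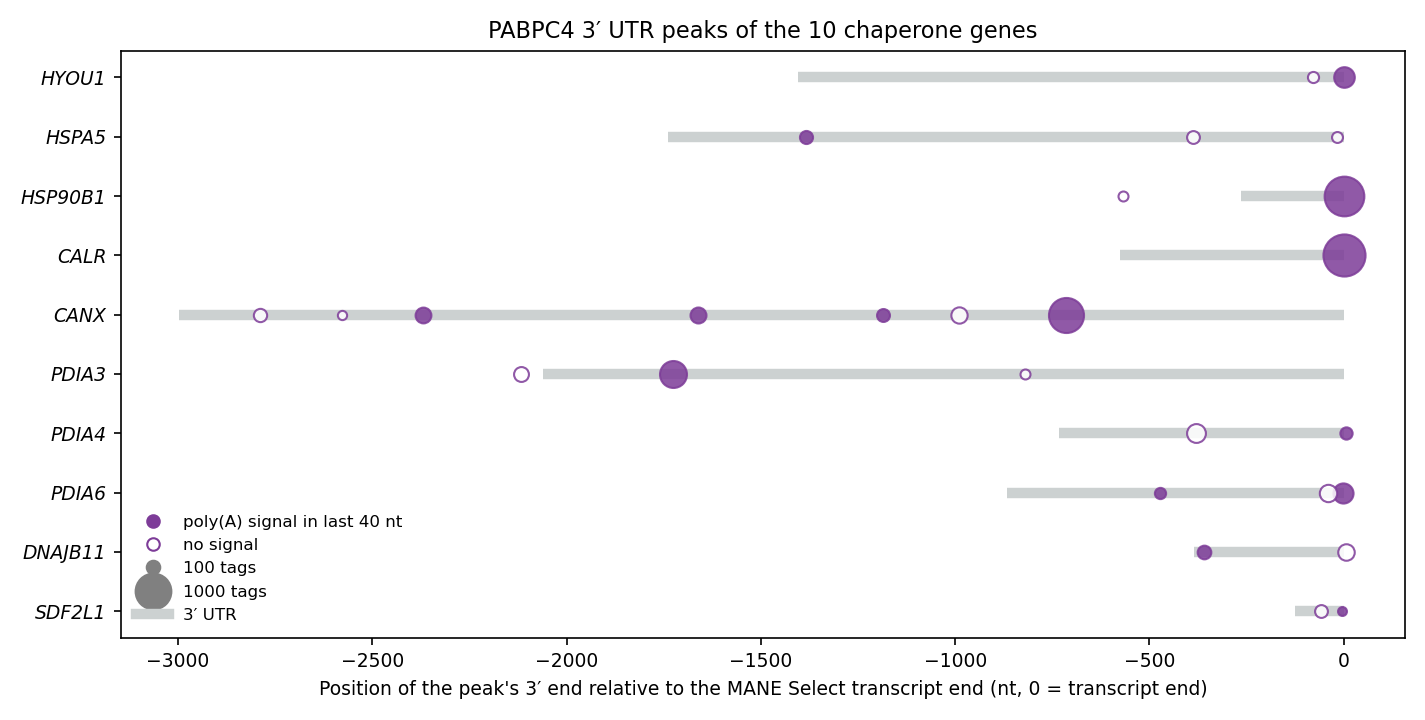
Position of the 3′ end of each of the 27 PABPC4 3′ UTR peaks relative to the end of the MANE Select transcript (0, in nt). The area of a circle grows with the peak height, filled circles have a poly(A) signal in the last 40 nt, and grey bars are the MANE Select 3′ UTRs. The 2 peaks left of their bar, of 32 tags in HSP90B1 and 132 tags in PDIA3, lie in 3′ UTRs of other transcripts. In the MANE Select transcript both are in coding sequence. The tallest peak is at the transcript end in HYOU1, HSP90B1, CALR, PDIA6 and DNAJB11, and well before it in HSPA5, CANX, PDIA3 and PDIA4.

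The chaperones of the Hsp70 and Hsp90 families differed in where their PABPC4 tags ended. In HYOU1 the peak of 300 tags (chr11:119044188-119044249) ended exactly at the transcript end, with AAUAAA 21 nt before it. An A-rich stretch also followed this peak. A peak of 52 tags ended 79 nt before the transcript end and 7 nt before another annotated end, without a signal, and a peak of 63 tags lay in coding exon 17. HSP90B1 likewise had almost all of its 3′ UTR height, 97.5%, in a peak of 1248 tags that ended 2 nt past the transcript end. HSPA5, which encodes BiP, the main Hsp70 of the endoplasmic reticulum, had its 3′ UTR height spread over 3 peaks of 48 to 91 tags instead, beside a median of 45 tags for PABPC4 3′ UTR peaks. The tallest of these, of 91 tags at chr9:125236237-125236406, was centred 269 nt after the stop codon and ended 1384 nt before the transcript end and 252 nt from any annotated end, with AAUAAA 29 nt before its own end. The other 3′ UTR peaks of HSPA5, of 85 and 48 tags, had no signal and were followed by an A-rich stretch, and the latter ended 16 nt before the transcript end.

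The lectins CALR and CANX, which hold newly made glycoproteins until they are folded, had tall peaks in 3′ UTRs of unlike length. CALR had a single 3′ UTR peak of 1409 tags (chr19:12944317-12944491) in a 3′ UTR of 576 nt, ending 2 nt past the transcript end after AUUAAA. CANX had 7 peaks over a 3′ UTR of 2997 nt. Those were, from the stop codon on, 95, 20, 156, 160, 88, 168 and 962 tags high, and the last held 58.3% of the 3′ UTR height. It ended 715 nt before the end of the MANE Select transcript and 1 nt past another annotated end, after AUUAAA. Either signal was present in 4 of the 7, and each of the other 3 had a variant hexamer. The peaks of 95, 156 and 160 tags were followed by an A-rich stretch. None of the 7 ended near the end of the MANE Select transcript.

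The disulfide isomerases PDIA3, PDIA4 and PDIA6 catalyse disulfide bond formation and exchange, and PDIA3 does so on glycoproteins held by the lectins. PDIA3 had its peak of 549 tags (chr15:43771427-43771553) 1725 nt before the end of its MANE Select transcript and 3 nt past another annotated end, with AAUAAA 34 nt before the peak's end. In PDIA4 the peak of 242 tags (chr7:149003442-149003582) ended 380 nt before the transcript end, 1 nt past another annotated end and without a signal. A lower PDIA4 peak of 74 tags ended 7 nt past the transcript end after AUUAAA. So in CANX, PDIA3 and PDIA4 the tallest peak was at an annotated end other than that of the MANE Select transcript. PDIA6 had its peak of 283 tags (chr2:10783393-10783427) at the transcript end after AAUAAA, with a peak of 198 tags next to it that had no signal and was followed by an A-rich stretch, and a further peak of 54 tags.

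DNAJB11 and SDF2L1 encode co-chaperones that assist HSPA5 and form a complex with each other. DNAJB11 had a peak of 174 tags (chr3:186585750-186585798) that ended 5 nt past the end of the MANE Select transcript, and a peak of 104 tags centred 9 nt after the stop codon, 360 nt before that end, with AAUAAA 20 nt before its own end. The latter was not near an annotated end. In SDF2L1, whose 3′ UTR is 124 nt long, the peak of 85 tags ended 58 nt before the transcript end without a signal, and a peak of 16 tags ended 4 nt before it after AUUAAA. For the latter the authors' p-value was 1.08e-02. A CALR intron peak of 41 tags had 4.86e-02, close to the limit of 0.05 of that list.

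Outside 3′ UTRs, 14 of the 20 PABPC4 peaks were followed by an A-rich stretch, which was at least 7 A among 10 nt, or a run of 6 A, in the 50 nt after the peak. This was 70% (48.1 to 85.5%), against 69.7% of the 44616 such peaks in the list. The share was 6 of 9 in coding sequence, 6 of 9 in introns and 2 of 2 in non-coding exons. In the 3′ UTRs it was 8 of 27, or 29.6% (15.9 to 48.5%), against 32.0% of all PABPC4 3′ UTR peaks. PAPERCLIP primes on A, and the part of such stretches in these peaks was not tested.

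The tallest coding peaks were in HSP90B1 and CANX. HSP90B1 had 713 tags in coding exon 7 (chr12:103938352-103938429), more than the tallest 3′ UTR peak of 7 of the 10 genes. CANX had 240 tags in coding exon 13 (chr5:179724690-179724771). The other 7 coding peaks were 27 to 94 tags high and lay in HYOU1, HSPA5, HSP90B1, CANX and PDIA6. The 30 nt after each of the tallest are shown with an A-rich stretch of 10 nt in capitals, which held 8 A in HSP90B1 and 7 A in CANX.
HSP90B1, chr12:103938430-103938459, plus strand: gAAGAAGAAAAgaaaccaaagacuaaaaaa
CANX, chr5:179724772-179724801, plus strand: aagagaaacuugguAAGAAACAGAguccag
The HYOU1 peak in coding exon 17 had no such stretch, unlike the HYOU1 3′ UTR peak of 300 tags.

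HYOU1 and CANX were the chaperone genes with 3′ UTR peaks of both proteins. Of the 8 HNRNPC peaks, 0 overlapped a PABPC4 peak, which allows a share of up to 37.5%, taken as 3 counts over 8 peaks. The share of the whole HNRNPC list that overlaps a PABPC4 peak was not computed, so nothing is read from this count. In HYOU1 both PABPC4 peaks lay downstream of the HNRNPC peak, that of 52 tags 72 nt away and that of 300 tags 137 nt away. In CANX the HNRNPC peak of 12 tags lay between PABPC4 peaks, with 156 tags 174 nt upstream and 160 tags 305 nt downstream, and the peak of 962 tags was 1123 nt downstream. The HNRNPC peaks of HSP90B1, CALR, PDIA4 and PDIA6, all outside 3′ UTRs, were 911 to 10493 nt from the nearest PABPC4 peak.

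**Figure D3:**
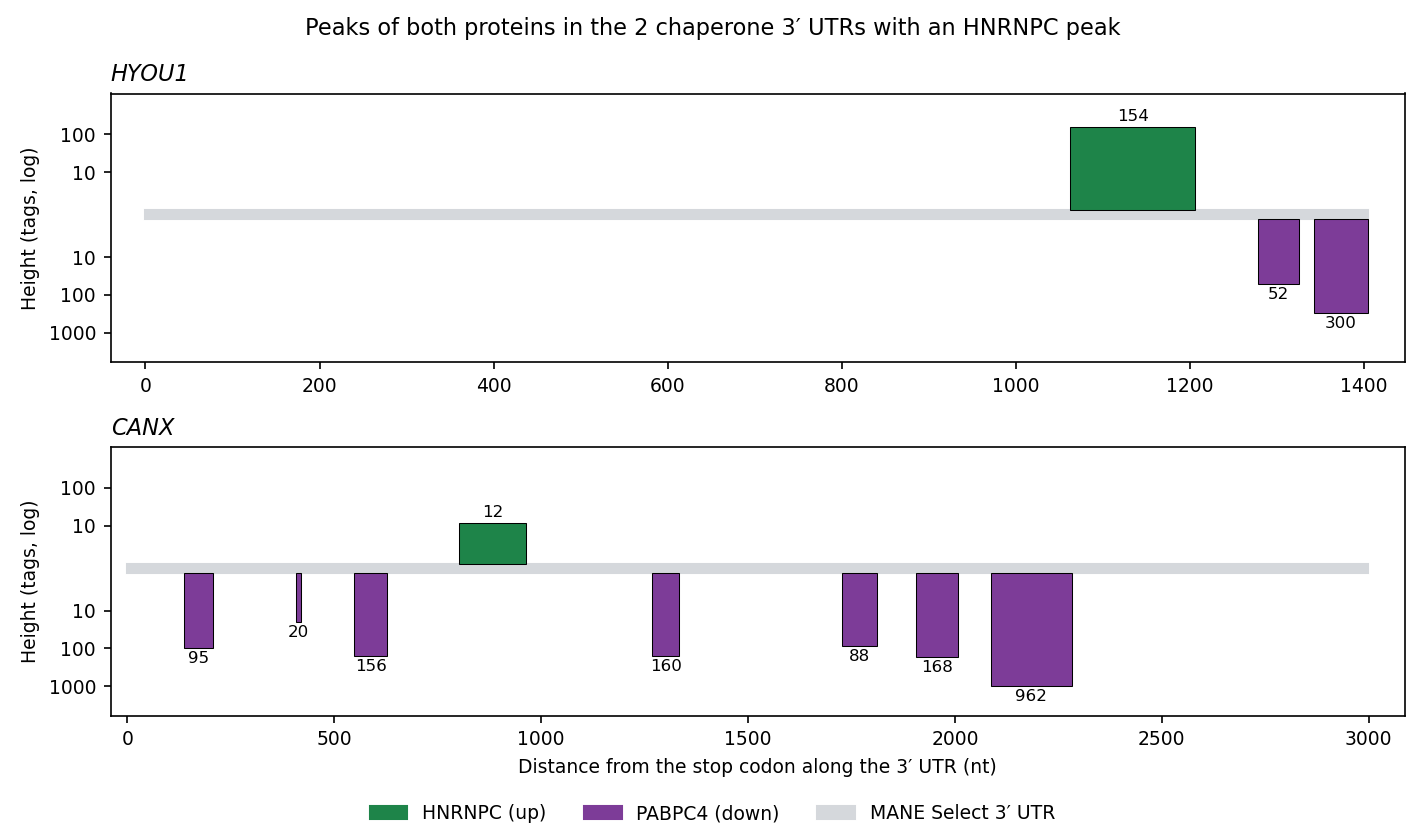
Map of the 3′ UTRs of HYOU1 (top) and CANX (bottom) by distance from the stop codon in nt, with HNRNPC peaks above the grey 3′ UTR and PABPC4 peaks below it, drawn to width and with height in tags on a log scale. In HYOU1 the HNRNPC peak of 154 tags comes before both PABPC4 peaks near the transcript end, and in CANX the HNRNPC peak of 12 tags lies among 7 PABPC4 peaks.

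Across the 385 gene IDs with 3′ UTR peaks of both proteins, HYOU1 ranked 2 by its HNRNPC peak and 90 by its PABPC4 peak. Some IDs share the same peaks, such as SLX1A and SULT1A3 at 8 and 2511 tags. The rank of 90 and the medians therefore count some peaks more than once. The medians were 11 and 132 tags. The 3 genes nearest to HYOU1 by the distance between log2 heights in the 2 lists were AGO2, with 115 and 300 tags and a distance of 0.42, MKNK2, with 115 and 298 tags and a distance of 0.42, and TNFRSF10B, with 196 and 231 tags and a distance of 0.51. CANX, with 12 and 962 tags, was near the median by HNRNPC and high by PABPC4.

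**Figure D4:**
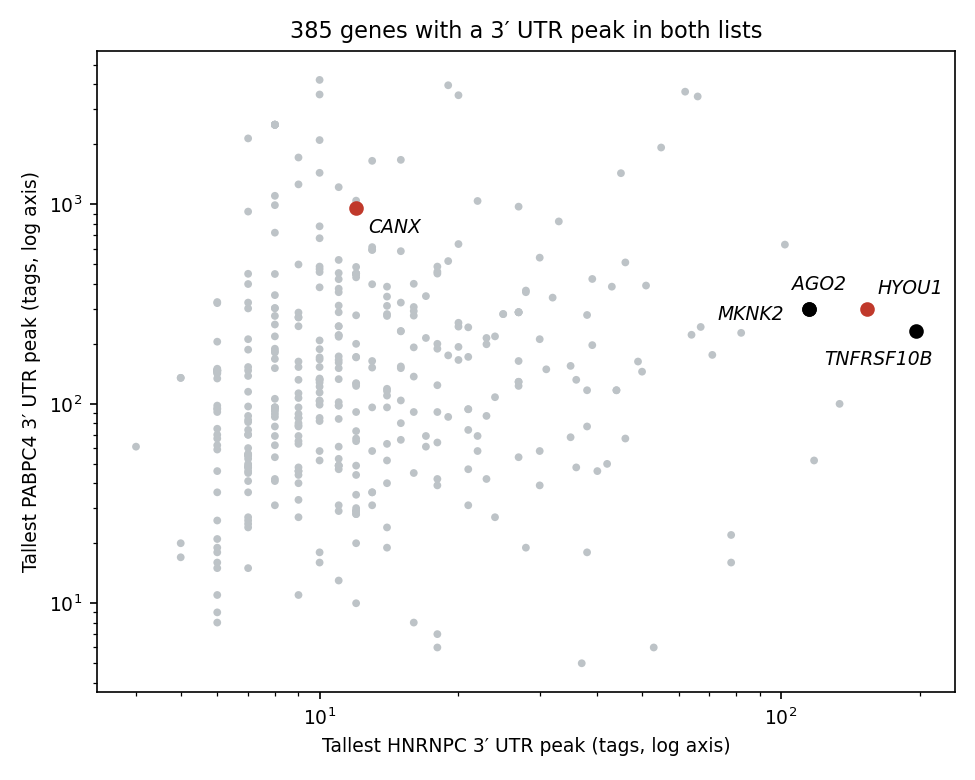
Height of the tallest HNRNPC 3′ UTR peak against that of the tallest PABPC4 3′ UTR peak, in tags on log axes, for the 385 gene IDs with both. There is 1 point per ID, and IDs that share their peaks coincide. HYOU1 and CANX are red, the 3 genes nearest to HYOU1 are black (AGO2 and MKNK2 nearly coincide), and HYOU1 at 154 and 300 tags is far to the right of most genes while CANX at 12 and 962 tags is not.

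Another 40 genes of protein folding and the unfolded protein response were examined beside them. HNRNPC had peaks in 15 of the 40 and 3′ UTR peaks in 4, beside 34.4% and 3.81% of the 9769 genes with a PABPC4 3′ UTR peak. PABPC4 had 3′ UTR peaks in 37 of the 40, with a median tallest height of 156 tags. The share was 48.7% over all protein-coding genes, whether or not expressed in these cells, so nothing is read from the difference. The HNRNPC 3′ UTR peaks of these 40 were 6 to 21 tags high, so none approached the 154 tags of HYOU1. By the tallest HNRNPC peak of each gene, the 3 highest genes had theirs outside 3′ UTRs, at 44 tags in an intron of DNAJC3, a J-domain co-chaperone, 29 tags in an intron of PDIA5, a disulfide isomerase, and 24 tags in a non-coding exon of SEC63, a translocon-associated J-domain protein. For PABPC4 the tallest 3′ UTR peaks were 1589 tags in P4HB, the prototype disulfide isomerase, 722 tags in CALU, a calcium-binding protein of the secretory pathway, and 696 tags in GANAB, a subunit of the glucosidase that trims glycans for the lectins.

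By role, HNRNPC had a peak in 5 of 13 chaperones and co-chaperones, 4 of 7 disulfide enzymes, 4 of 5 glycoprotein quality control genes, 1 of 8 degradation genes and 1 of 7 stress sensors and transcription factors. With so few genes in each role and 34.4% of the 9769 genes having a peak, these counts are a description, and no difference between roles is read from them. The median tallest PABPC4 3′ UTR peak ran from 84.5 tags in the degradation genes to 240 tags in the disulfide enzymes.

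The cytosolic counterparts of the Hsp70 and Hsp90 chaperones gave values of their own. HSPH1, related to HYOU1, had an HNRNPC intron peak of 14 tags and a tallest PABPC4 3′ UTR peak of 245 tags. HSPA8, the constitutive cytosolic Hsp70, had no HNRNPC peak, like HSPA5, and a PABPC4 3′ UTR peak of 115 tags. HSP90AB1 had an HNRNPC 3′ UTR peak of 55 tags, where HSP90B1 had none, and a PABPC4 3′ UTR peak of 1930 tags.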

How the data were processed

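The data were CLIP of HNRNPC and PAPERCLIP of PABPC4 in MDA-MB-231 cells, 2 samples each. Per the labels and the study's methods HNRNPC was mapped by irCLIP, while the deposited list is named for HITS-CLIP, and which form gave it was not settled here. The authors collapsed HNRNPC reads by molecular identifiers (UMI-tools), trimmed them with cutadapt, aligned them to hg38 with BWA 0.7.17, removed PCR duplicates, pooled both samples and called peaks by valley seeking. For PABPC4 no separate processing was given in the sources used here. The deposited signal of a peak was its height in pooled unique tags, not scaled to depth, beside its gene ID, expected height and the authors' p-value, which reached 0.1 for HNRNPC and 0.05 for PABPC4.

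Symbols were found for 4090 of 4098 gene IDs (HNRNPC) and 13155 of 13189 (PABPC4). The centre of a peak, on its own strand, set its feature, 3′ UTR first, then coding sequence, 5′ UTR, non-coding exon and intron, with GENCODE 44 on GRCh38, in which 0 peaks passed a chromosome end. Sequences and motifs were read from the hg38 reference on the transcript strand. Python 3.11.15, pandas 2.3.3, pysam 0.24.0 and scipy 1.17.1 were used. On 400 simulated peaks all 6 quantities were recovered. The simulated sequence held only C and G apart from the planted signals, and every peak lay in a 3′ UTR. Chance matches, other features and the searches for U runs and GGAUUACA were therefore not tried. As each protein has 1 list, no difference was tested.

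The genes, lists and motifs were chosen with earlier results of these data known. Named were the 10 genes, from 40 pathway genes the 3 of greatest HNRNPC height and the 3 of greatest PABPC4 height in the 3′ UTR, 3 cytosolic counterparts, and the 3 genes nearest to HYOU1 by Euclidean distance of log2 heights. TNFRSF10B and EHMT1 were also named as the neighbours of HYOU1 by HNRNPC height. Alternatives covered the p-value, height, feature, signal, end and A-rich rules.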

Additional observations from a re-analysis of the deposited data

How the results depend on the processing

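Of 45 recalculations, 40 stayed within the counting interval of a share or within 1.5 times a count, and 5 moved further. The share of PABPC4 3′ UTR peaks with a poly(A) signal, 51.9%, was 70.4% with 12 signal hexamers and 70% for the tallest peak of each gene, and the share near an annotated end, 59.3%, was 80% for the tallest peaks. The A-rich share outside 3′ UTRs, 70%, was 45% with 6 A in a row only and 35% within 20 nt. The shifts with 12 hexamers and with the A-rich rules reflect wider or narrower definitions. Those for the tallest peaks reflect a choice of peaks by height. Assigned by its last base, the CALR peak that ends 2 nt past the gene left the 3′ UTR, and PABPC4 3′ UTR peaks were found in 9 genes in place of 10. The rank of the HYOU1 peak (2) rests on the height by which the gene was chosen, and filters that remove lower peaks could not change it. Its share of the gene's HNRNPC height (100%) could not change either, as the gene has 1 peak. Their recalculations are among the 40 and say nothing about stability. Features on the MANE Select transcript and leaving out CANX were alternatives chosen after seeing the data.

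No paired analysis was possible because tags of both samples had been merged before peaks were called, which also kept any replicate from being left out. With 8 HNRNPC peaks in the 10 genes, the intervals were wide, and a gene with no listed peak had none past the authors' limit, which does not show that it was unbound.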

Other observations

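On the opposite strand within the span of HSP90B1, PABPC4 had a peak of 8 tags at chr12:103951251-103951289, listed under UQCC6. Among the pathway genes, and named after their values were seen, SIL1, a nucleotide exchange factor of HSPA5, and PDIA5 had the most HNRNPC peaks, 5 each. Those of SIL1 reached 19 tags and those of PDIA5 29 tags, and neither gene had an HNRNPC 3′ UTR peak. ATF6B, a membrane-bound transcription factor of the unfolded protein response, was the pathway gene with no peak of either protein. The 4 HNRNPC 3′ UTR peaks of the pathway genes were in UGGT1 (21 tags), EDEM1 (12 tags), CALU (8 tags) and ERO1A (6 tags).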
